A study of Mus musculus with 4 samples.

Results

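The genes described here are 7 genes known from eosinophils: Prg2, Prg3 and Epx, which encode granule proteins, Alox15, which encodes a lipoxygenase, and Siglecf, Ccr3 and Il5ra, which encode surface receptors. They were taken by gene symbol from the 22180 genes that had a probe set of their own, and each was represented by 1 probe set. The set was chosen with the values of these arrays known, so the differences below describe the arrays and are not a test. Gene expression was measured in mast cells of BALB/c mice on 4 Affymetrix arrays, with 1 array for each of 4 groups, so no value has a replicate error and no p-value was computed. Control mast cells were derived from bone marrow (BMMCs) over 3 to 4 weeks in 10 ng/ml interleukin-3 plus 10 ng/ml stem cell factor, and then stayed 6 days in plain medium. A second BMMC culture received TGF-β1 at 5 ng/ml for the 6 days. Another was kept for 6 days on Chinese hamster ovary (CHO) cells carrying the mouse Notch ligand Dll1, after which c-Kit-positive cells were collected with magnetic beads. The last group was intestinal mucosal mast cells from untreated mice, sorted by surface FcεRI and c-Kit from small-intestinal lamina propria. The labels name no coculture with CHO cells lacking Dll1, so the ligand, the feeder cells and the bead selection cannot be told apart on the Dll1 array. They do not say whether cells of several mice were pooled. Age and sex of the mice are not given in the labels used here.

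Eosinophils store toxic basic proteins in large granules. Major basic protein (Prg2) forms the crystalline granule core, Prg3 encodes a close relative of it, and eosinophil peroxidase (Epx) lies in the granule matrix. Eosinophil precursors grow under interleukin-5 through Il5ra, which pairs with the common beta chain Csf2rb, and mature cells follow eotaxin chemokines through Ccr3 and carry the inhibitory lectin Siglec-F. Mast cells come from related bone marrow progenitors, share the transcription factors Gata1 and Gata2 with eosinophils, and are defined by c-Kit, the high-affinity IgE receptor and Cpa3.

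All levels are on the log2 scale, and each gene is compared with itself across arrays. The background limit of an array was the level under which 95% of 1440 probe sets for olfactory, vomeronasal and taste receptors lay, and it ranged from 5.11 to 5.21. A gene was called higher or lower if either of the arrays compared showed it above the limit and the difference was 2-fold or more once values under the limit had been raised to it. Where 1 array alone was above the limit, the fold is a lower bound, written "at least". Between 50.7% and 55.6% of genes were above the limit on each array. The mast cell genes Kit, Fcer1a, Ms4a2 and Cpa3 were far above it on all 4 arrays, with lowest levels of 11.75, 11.66, 9.98 and 12.76, each on the intestinal array. They belong to a list of 15 mast cell markers that did not all hold their level. In intestinal cells 3 of the 15 (Tpsb2, Cma1 and Slc18a2) were lower than in control BMMCs and 2 (Mcpt1 and Mcpt2) were higher. Among all genes tested there, 6.74% were lower and 4.47% higher.

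Of the 7 eosinophil genes, 3 exceeded the limit in control BMMCs, 2 with TGF-β1, 5 with Dll1 and 4 in intestinal cells. At least 2-fold above the limit, the numbers were 0, 0, 4 and 2 in the same order. The granule genes stood out on the Dll1 array, Alox15 was high on the Dll1 and intestinal arrays, Siglecf was above the limit on the intestinal array alone, and Ccr3 and Il5ra were less than 2-fold above the limit or below it throughout.

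**Figure D1:**
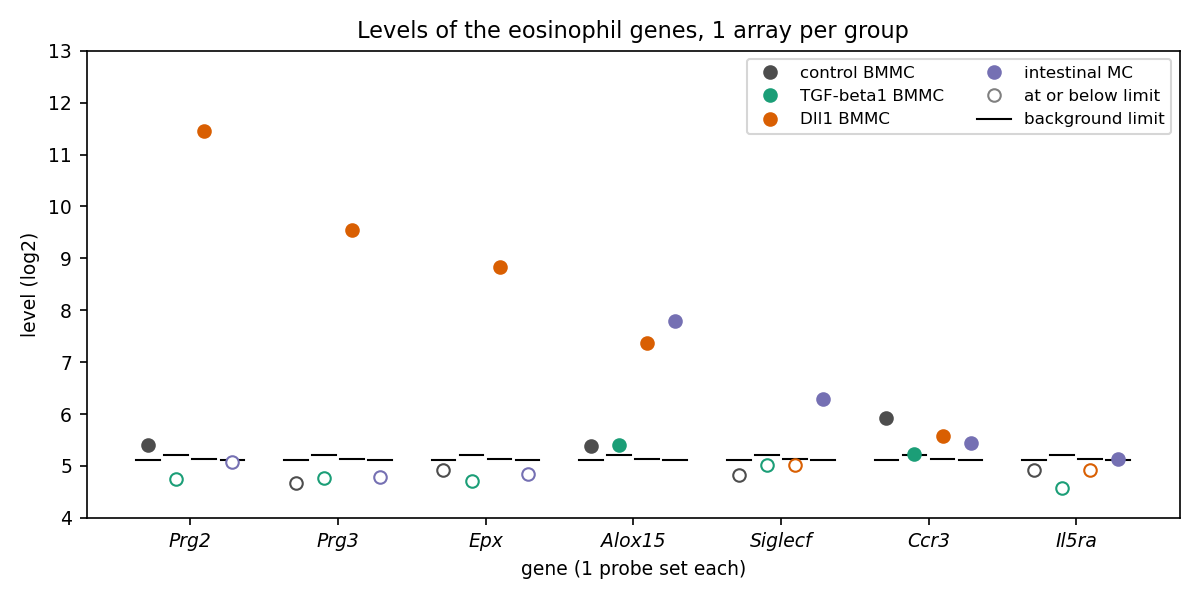
Log2 level of each of the 7 genes (x axis) on the 4 arrays, 1 point per array, filled where the level was above that array's background limit (black bar) and open where it was not. Prg2, Prg3 and Epx lie between 8.83 and 11.45 on the Dll1 array and at or below 5.40 on the other arrays, while Alox15 is high on the Dll1 and intestinal arrays.

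Among the granule genes, Prg2 read 5.40 in control BMMCs, 4.75 with TGF-β1, 11.45 with Dll1 and 5.08 in intestinal mast cells. It was just above the limit in control cells and below it with TGF-β1 and in intestinal cells, and the Dll1 array was far apart from the other 3. Prg3 read 4.68, 4.77, 9.55 and 4.80 in the same order. Epx, the peroxidase that forms hypobromous acid from bromide and hydrogen peroxide, read 4.92, 4.71, 8.83 and 4.84. For Prg3 and Epx the Dll1 array was the 1 array above the limit, so these transcripts were not above background in control, TGF-β1-treated or intestinal cells. In bulk RNA, more cells of a type and more of a transcript per cell cannot be told apart.

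With Dll1, Prg2 was 66.0-fold higher than in control BMMCs, Prg3 at least 21.6-fold and Epx at least 13.1-fold. Alox15 was 3.97-fold higher. So 4 of 7 genes were called higher and 0 lower, beside a background of 1.64% higher and 1.78% lower (3.42% in all) among the 12758 genes tested in that comparison. This contrast was used in choosing the set, so nothing is read from that share. The median measured difference of the 7 genes, tested or not, was 1.99 on the log2 scale. That of all genes, tested or not, was 0.024, and that of all genes tested was 0.0029. By size of the difference, Prg2 ranked 2, Prg3 10, Epx 14 and Alox15 52 from the highest. With array medians subtracted, 175 genes were higher and 316 lower, in place of 209 and 227, and the same 4 of the 7 were higher. The bounds of Prg3 and Epx depend on the limit: at the 99th percentile of the receptor probe sets their differences were 3.60 and 2.88 on the log2 scale, against 4.43 and 3.71.

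The granule genes were also called between the Dll1 array and the TGF-β1 and intestinal arrays. Against TGF-β1-treated BMMCs, Prg2 was at least 75.5-fold, Prg3 at least 20.2-fold and Epx at least 12.2-fold higher with Dll1, and Alox15 was 3.92-fold higher. That made 4 of 7 higher and 0 lower, with a background of 2.19% higher and 1.9% lower (4.09% in all). Prg2 ranked 1 of 12650 in that comparison. Intestinal mast cells were at least 80.8-fold lower than Dll1-cocultured BMMCs in Prg2, at least 21.7-fold lower in Prg3 and at least 13.1-fold lower in Epx, which made 3 of 7 lower against a background of 4.14%. In the same pair Siglecf was the 1 gene of the 7 that was higher (background 3.56% higher, 7.7% in all), and Alox15 differed by 0.43. These comparisons share the Dll1 array, so their sizes are not independent of each other. Prg3 and Epx were below the limit on every other array. Their differences are therefore the Dll1 level less a limit of 5.11 to 5.21, which by itself makes them similar in size. The same holds for Prg2 against the TGF-β1 and intestinal arrays.

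**Figure D2:**
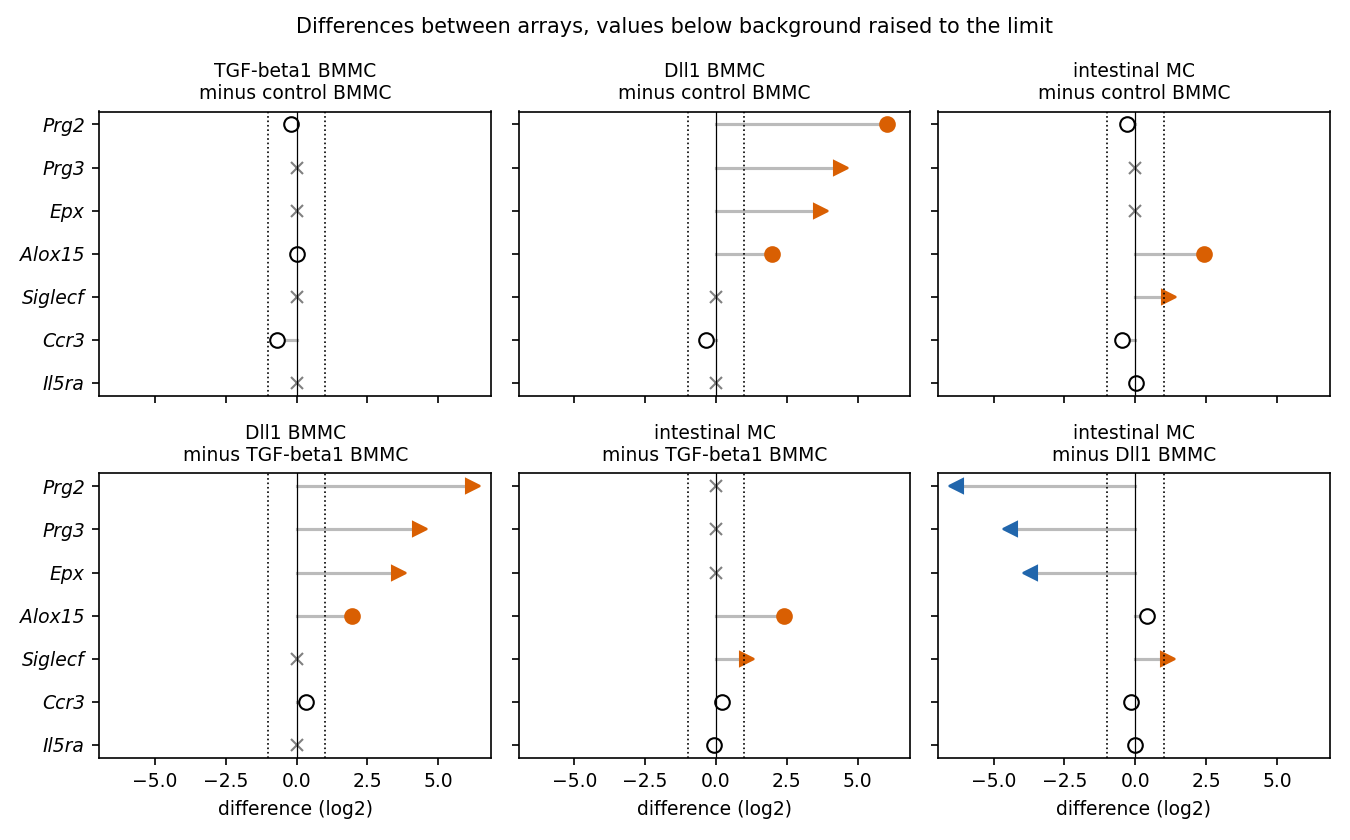
Log2 difference between the arrays of each of the 6 pairs (x axis) for the 7 genes, with values below background raised to the limit. Filled symbols are at least 2-fold different (orange higher, blue lower; triangles are lower bounds), open circles are not, crosses mark genes below the limit on both arrays, and dotted lines stand at 2-fold. Granule genes are called in the 3 panels that hold the Dll1 array and in none of the others.

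Markers of another granulocyte differed on the same array. Of 16 neutrophil and promyelocyte markers, 8 were at least 2-fold higher with Dll1 than in control BMMCs and 1 (Ly6g) was lower, against the same background of 1.64% and 1.78%. Their median measured difference was 1.47. All 16 were above the limit on the Dll1 array, against 9 in control cells, 8 with TGF-β1 and 7 in intestinal cells. Their summed level was 11.4 (log2) with Dll1, against 9.28, 9.25 and 9.85. Elane, the neutrophil elastase, was at least 12.5-fold and S100a8, a calprotectin subunit, at least 13.3-fold higher. Ctsg, cathepsin G, was 9.79-fold higher with Dll1 and also 9.38-fold higher in intestinal cells. The part of these cells in the granule gene result was not tested. Of 12 basophil markers, 3 (Mcpt8, Cd69 and Ccl3) were higher with Dll1 and 1 (Ifitm1) was lower.

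The surface receptors among the 7 genes were not called with Dll1. On the Dll1 array Siglecf read 5.01 and Il5ra 4.92, both below the limit of 5.13, and Ccr3 read 5.58, which was 0.34 lower (log2) than in control BMMCs. The mast cell markers were not reduced there by 2-fold, since of 15 markers Mcpt1 and Mcpt2 were higher and none was lower. Among 16 adherent-cell genes that feeder RNA could carry, 4 were higher with Dll1 (Dll1 itself, Actn1, Anxa2 and Thbs1). None of the 16 was lower. Immediate early genes, which respond to handling, were higher for 12 of 21 and lower for none. These counts with Dll1 stand beside a background of 1.64% higher and 1.78% lower. In intestinal cells 19 of the 21 immediate early genes were higher than in control BMMCs and none was lower, beside 4.47% and 6.74%. The part of feeder RNA or handling in the granule gene and Alox15 values was not tested.

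Prg2 and Prg3 are next to each other on chromosome 2 in the RefSeq gene order, and Epx shares a stretch of chromosome 11 with the related peroxidase genes Lpo and Mpo. Across the protein-coding genes up to 3 places from any of the 7 genes, 30 neighbours had a value, and Mpo was the 1 neighbour at least 2-fold higher with Dll1. On chromosome 2, Slc43a3, the gene before Prg2, differed by 0.20 and P2rx3, the gene after Prg3, by 0.19 between the Dll1 and control arrays. On chromosome 11, Mpo, the neutrophil myeloperoxidase 3 places from Epx, read 5.14, 5.23, 7.97 and 4.95 on the control, TGF-β1, Dll1 and intestinal arrays and was 7.09-fold higher with Dll1. Lpo, the lactoperoxidase gene that lies between Mpo and Mks1, read 5.23, 5.20, 5.40 and 5.28 and differed little. In intestinal cells the neighbours Slc43a1 and Slc43a3, amino acid and nucleobase transporters beside Prg2, were 3.80-fold and 2.76-fold higher than in control BMMCs, while Prg2 was not.

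**Figure D3:**
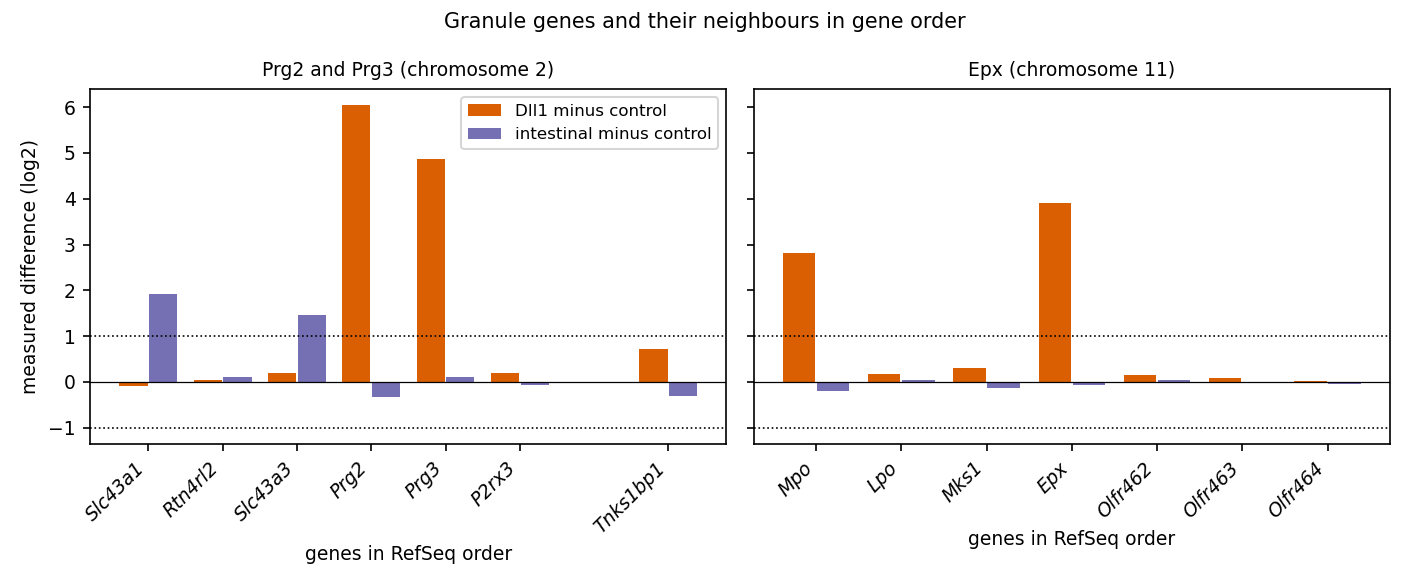
Measured log2 difference from control BMMCs (y axis) for the genes around Prg2 and Prg3 and around Epx, in RefSeq order, on the Dll1 array (orange) and the intestinal array (violet). The gap after P2rx3 is a gene without a value here, and dotted lines stand at 2-fold. With Dll1, Prg2, Prg3, Epx and Mpo pass 2-fold and the other genes drawn do not.

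The bases upstream of Prg3 and Epx are shown because these granule genes were above background on the Dll1 array alone, and those of Mpo because it is the neighbour of Epx that was high there too. The sequences are RefSeq's for GRCm38.p6, run 5′ to 3′ on the gene's strand and end at the base before the first annotated base of the gene. For Prg3 the start from which positions are counted lies 19 bases inside the gene's first annotated base, so its printed bases stop that far short of it. The stretches lie at chr2:84987965-84988195 on the + strand for Prg3, chr11:87875537-87875786 on the - strand for Epx and chr11:87793534-87793783 on the + strand for Mpo. Capitals mark matches on either strand to any of 8 motifs. GATA factors were searched with AGATAA and also with TGATAA. The C/EBP family was searched with TTGCNNAA. RBPJ, the DNA-binding partner of Notch, was searched with TGGGAA. PU.1, a myeloid and lymphoid factor, was searched with GAGGAA. SMAD proteins, which act below TGF-β receptors, were searched with CAGAC. AP-1, the dimer of Fos and Jun proteins, was searched with TGANTCA. The TATA box was searched with TATAAA.
Prg3: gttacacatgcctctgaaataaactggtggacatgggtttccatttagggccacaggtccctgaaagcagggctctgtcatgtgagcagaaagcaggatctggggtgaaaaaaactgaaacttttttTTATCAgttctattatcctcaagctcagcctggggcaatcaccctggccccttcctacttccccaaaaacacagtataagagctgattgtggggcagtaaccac
Epx: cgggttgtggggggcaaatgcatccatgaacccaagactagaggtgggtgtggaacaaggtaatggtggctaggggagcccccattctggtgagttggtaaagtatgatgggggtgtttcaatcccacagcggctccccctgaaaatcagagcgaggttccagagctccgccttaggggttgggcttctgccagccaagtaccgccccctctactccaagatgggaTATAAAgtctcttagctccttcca
Mpo: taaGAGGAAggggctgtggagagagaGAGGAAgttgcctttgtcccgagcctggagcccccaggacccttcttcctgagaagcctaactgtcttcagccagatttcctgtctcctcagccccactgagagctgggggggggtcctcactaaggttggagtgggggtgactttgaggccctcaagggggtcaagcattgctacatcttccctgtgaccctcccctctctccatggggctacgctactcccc
In the window from 250 bases before to 50 after the start from which positions are counted, Prg3 had 1 match to TGATAA. It lay on the opposite strand and began at position -123 from that start. Prg3 also had 2 matches to CAGAC, both after the start and so outside the bases shown. TGATAA was found in 9.05% and CAGAC in 49.6% of all 32851 such windows. The Epx window held 1 match, a TATAAA at -24, which 13.6% of windows had. The Mpo window held 2 matches to GAGGAA (28.3% of windows). No match to TGGGAA (25.6%), AGATAA (11.2%), TTGCNNAA (10.8%) or TGANTCA (7.81%) was found in these 3 windows, and none of the matched letters overlapped another motif. The table of windows held 5 of the 7 genes. Among them Il5ra and Ccr3 had 1 AGATAA each, at -74 and -30, Siglecf had 1 TGATAA at 12, and Ccr3 had 2 TGGGAA. A match is a description of letters and not of binding.

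Alox15, the lipoxygenase that inserts oxygen into arachidonic and linoleic acid and is abundant in eosinophils and some macrophages, had another pattern. It read 5.38 in control BMMCs, 5.40 with TGF-β1, 7.37 with Dll1 and 7.80 in intestinal mast cells. It was above the limit on all 4 arrays, with the first pair close to it and the second pair well above. Intestinal cells were 5.35-fold higher than control BMMCs and 5.27-fold higher than TGF-β1-treated BMMCs. The intestinal and Dll1 arrays differed by 0.43, beside a standard deviation of 0.39 between the differences that 2 probe sets of 1 gene gave for these arrays. That spread holds no variation between repeated arrays or cell preparations.

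Other genes of the lipoxygenase pathway did not share that pattern. Of the 12 others measured, none was at least 2-fold higher or lower with Dll1 than in control BMMCs, and in intestinal cells 3 were lower and none was higher. Among all genes tested, 3.42% were called with Dll1, and in intestinal cells 6.74% were lower and 4.47% higher. Alox5, the enzyme that starts leukotriene synthesis, read 12.64, 12.54, 12.09 and 11.07 and was 2.96-fold lower in intestinal cells than in control. Its partner Alox5ap stayed between 11.03 and 11.18. Alox8 read 7.27, 6.15, 7.05 and 5.29, lower by 2.17-fold with TGF-β1 and by 3.95-fold in intestinal cells. Alox12 and Alox12e, which precede Alox15 in the gene order of chromosome 11, were below the limit on every array. Alox15 is also known to respond to interleukin-4. Of 15 genes of the interleukin-4 response, 7 were above the limit on either the Dll1 or the control array, and none of them was called. Against TGF-β1, Il4 (2.11-fold) and Klf4 (2.08-fold) were higher with Dll1, beside 2.19% of all genes tested. In intestinal cells Il4 (3.77-fold) and Klf4 (3.26-fold) were higher than in control and the receptor Il4ra was 2.31-fold lower. Arg1, Retnla and Chil3, which macrophages induce with this cytokine, were below the limit on all 4 arrays. The part of interleukin-4 in the Alox15 values was not tested.

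Siglecf, the lectin of eosinophils and alveolar macrophages that binds sialylated glycans, read 4.82, 5.03, 5.01 and 6.29 on the control, TGF-β1, Dll1 and intestinal arrays. It was below the limit in the 3 BMMC cultures and above it in intestinal cells. There it was at least 2.26-fold higher than in control BMMCs, at least 2.12-fold higher than with TGF-β1 and at least 2.24-fold higher than with Dll1. All 3 calls were lost with the limit at the 99th percentile, where the differences were 0.35, 0.44 and 0.29 on the log2 scale. With Alox15, it made 2 of 7 genes higher and 0 lower in intestinal than in control cells, beside a background of 4.47% higher and 6.74% lower (11.2% in all). Against TGF-β1 the count was also 2 of 7 higher and 0 lower, beside 4.06% and 4.56% (8.62% in all).

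Of the 8 other Siglec family genes, Cd22, a B cell lectin, was the 1 that was at least 2-fold higher in intestinal than in control cells, by 2.23-fold. Cd33 was well above background on all arrays, with 8.95, 7.60, 8.85 and 8.36, and was 2.55-fold lower with TGF-β1. Siglece, Siglecg, Siglech, Siglec1 and Mag were below the limit on every array. Markers of other intestinal cells were higher in the same sample. Of 16 T, innate lymphoid and B cell markers 7 were at least 2-fold higher than in control BMMCs and none was lower. Of 15 macrophage and monocyte markers 3 were higher and 1 (Ly6c2) was lower, and of 16 epithelial markers 6 were higher and none was lower. The background is that of the same comparison, 4.47% higher and 6.74% lower. Their summed levels were 13.01, 11.16 and 11.08 (log2) in intestinal cells, against 11.92, 10.45 and 9.11 in control BMMCs. Single bright genes weigh heavily in these sums. Gzmb read 11.77 in intestinal and 11.70 in control cells, Cx3cr1 10.35 and 9.44, and Cdh1 10.12 and 6.16. With Dll1, 4 of the 16 lymphoid markers (Gzma, Nkg7, Il7r and Ighm) were also higher than in control, beside 1.64% of all genes tested. C1qc and Mrc1 among the macrophage markers were below the limit in intestinal cells. The part of other intestinal cell types in the Siglecf and Alox15 values was not tested.

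Ccr3, the eotaxin receptor, read 5.93 in control BMMCs, 5.24 with TGF-β1, 5.58 with Dll1 and 5.44 in intestinal cells. It was above the limit on all 4 arrays, closest to it with TGF-β1, where the limit was 5.21, and no pair of arrays differed by 2-fold. Its chromosome 9 neighbours Ccr1 and Ccr2 differed in other ways. Ccr1 read 5.77, 4.96, 6.70 and 5.80 and was at least 2.81-fold higher with Dll1 than with TGF-β1. Ccr2 read 6.22, 6.69, 6.84 and 5.40 and was 2.70-fold lower in intestinal than in Dll1-cocultured cells. The list of 13 chemokine receptor genes held CC receptors and also Cx3cr1 and Xcr1. Of the 13, Ccrl2, a receptor for chemerin, was 3.81-fold higher with Dll1 and 24.6-fold higher in intestinal cells than in control, and none was lower. The shares higher among all genes tested were 1.64% and 4.47%. Among 7 CCR3 ligands, Ccl5 was 10.9-fold higher in intestinal cells than in control BMMCs, and the eotaxins Ccl11 and Ccl24 were not called in any comparison with control cells.

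Il5ra read 4.92, 4.58, 4.92 and 5.14, below the limit in the 3 BMMC cultures and just above the limit of 5.11 in intestinal cells. The cytokine gene Il5 read 4.90, 4.78, 5.14 and 5.13, so it too stayed close to the limits. The beta chains were bright on every array. The shared beta chain Csf2rb read 10.57, 10.43, 10.12 and 9.42, and its mouse homologue Csf2rb2, the beta chain of the interleukin-3 receptor, read 12.24, 12.12, 11.73 and 10.65. Of 17 genes of this pathway, none was higher or lower with TGF-β1 or with Dll1, and in intestinal cells 5 were lower than in control BMMCs. Among all genes tested, 1.4% were called with TGF-β1 and 3.42% with Dll1, and 6.74% were lower in intestinal cells. The 5 lower pathway genes were Csf2rb (2.21-fold), Csf2rb2 (3.00-fold), the STAT5 targets Cish (2.48-fold) and Bcl2l1 (2.04-fold), and Socs1 (4.96-fold).

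None of the 7 genes was at least 2-fold higher or lower with TGF-β1 than in control BMMCs. The background was 0.508% higher and 0.89% lower (1.4% in all) among 12019 genes tested. Only 3 of the 7 were tested, since 4 were below the limit on both arrays. Ccr3 was 0.69 lower (log2) and Prg2 0.66 lower as measured, the latter with the TGF-β1 value below the limit. Ccr3 ranked 309 from the lowest. The standard deviation between probe sets of 1 gene was 0.24 in that comparison, over genes with 2 probe sets above the limit on both arrays. It compares probe sets on the same arrays and holds no variation between repeated arrays or cultures. After 16 linear units were taken from every value, which widens differences of dim genes, Ccr3 passed 2-fold with a difference of -1.05.

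**Figure D4:**
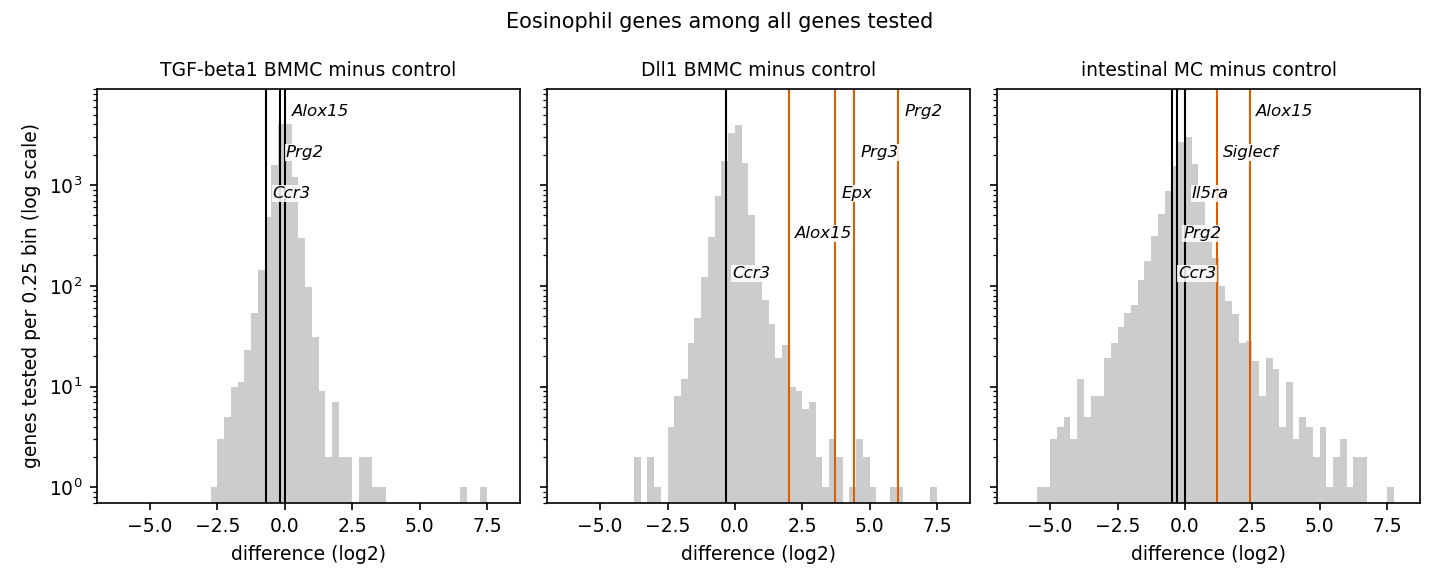
Distribution of log2 differences from control BMMCs over all genes tested (bars, log-scaled count per bin of 0.25) with the eosinophil genes that were tested marked by lines, orange where at least 2-fold higher. With TGF-β1 no marked gene passes 2-fold and Ccr3, at -0.69, is the lowest, with Dll1 4 lie in its upper tail, and in intestinal cells Alox15 and Siglecf lie in its upper part.

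Other genes of eosinophils were read from lists. Of 17 ribonucleases listed, 7 had a probe set of their own. Ear6, an eosinophil-associated ribonuclease, read 4.32, 4.36, 6.38 and 4.31 and was at least 2.40-fold higher with Dll1 than in control BMMCs. Ear10, Ear14 and Rnase2a were below the limit on every array, and Rnase2b read 4.70, 4.87, 5.20 and 5.35. Rnase6, which macrophages and mast cells also express, read 9.57, 11.04, 10.49 and 10.38 and was 2.78-fold higher with TGF-β1. Near-identical Ear genes can share probes, so the level of Ear6 on its own is uncertain.

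None of 18 transcription factors and regulators of granulocytes was at least 2-fold higher or lower with Dll1, beside 3.42% of all genes tested. Cebpe, which terminal eosinophil and neutrophil maturation requires, read 4.93, 4.97, 6.00 and 5.33. It was above the limit with Dll1 and in intestinal cells, and its difference from control with Dll1 was 0.89 with the control value raised to the limit. Gata1 read 8.24, 7.96, 7.62 and 6.62, Gata2 10.54, 10.48, 9.86 and 10.41, and Spi1, which encodes PU.1, 6.03, 5.92, 5.88 and 6.12. Gata1 was 3.07-fold lower in intestinal cells, and Trib1, a regulator of eosinophil identity, was at least 3.20-fold higher there. Id2 was 3.68-fold lower with TGF-β1 and 2.41-fold lower in intestinal cells. Of 14 other eosinophil surface genes, Itga4 (7.09-fold), Cd69 (4.20-fold) and Pilra (2.49-fold) were higher with Dll1 and none was lower. The shares among all genes tested were 1.64% and 1.78%. In intestinal cells 5 of the 14 were higher than in control and 3 were lower, beside 4.47% and 6.74%. Among them Itgax, which encodes CD11c, was at least 67.3-fold higher, and Hrh4, a histamine receptor of eosinophils and mast cells, was 4.64-fold lower.

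**Figure D5:**
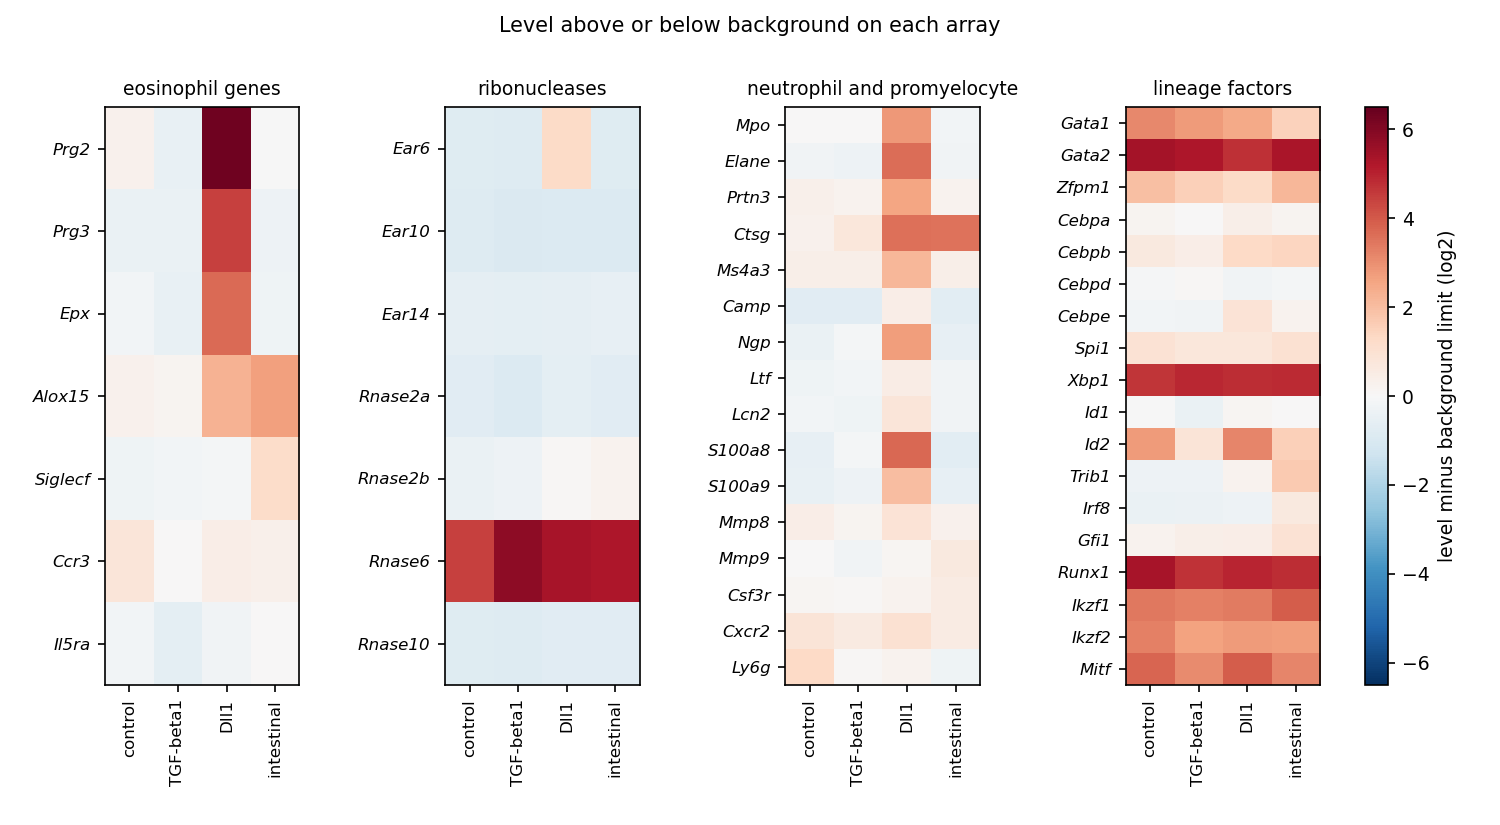
Log2 level minus the background limit on each of the 4 arrays (columns) for the 7 eosinophil genes, ribonucleases, neutrophil and promyelocyte markers and lineage factors (rows), red above and blue below the limit; rows are read from left to right, not against each other. The Dll1 column is red for Prg2, Prg3, Epx and Alox15, for Ear6 and for all 16 neutrophil and promyelocyte markers, some of them faintly. Rnase6 and many lineage factors are red in all 4 columns.

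The genes whose pattern was most like that of each eosinophil gene were found by the Euclidean distance between the 4 log2 values of each gene, with values under the limit raised to it and the gene's mean then subtracted, among 12145 genes above the limit on at least 1 array. For Prg2 they were Prg3 (1.58), Nid1 (2.15), S100a8 (2.18), Epx (2.20) and Elane (2.26). For Prg3 they were Nid1 (0.57), S100a8 (0.60), Epx (0.63), Elane (0.68) and Mpo (1.38). For Epx they were S100a8 (0.02), Nid1 (0.05), Elane (0.06), Prg3 (0.63) and Mpo (0.75). Genes above the limit on the Dll1 array alone become equal on the other 3 arrays once raised to the limit, so the distances among such genes (Prg3, Epx, Nid1, S100a8 and Elane) give little more than the difference in their Dll1 level. They are no measure of likeness on the other arrays, and the Dll1 array was used to choose the set. Nid1, a basement membrane protein, read 4.44, 4.46, 8.89 and 4.50. In all, 60 genes (0.271% of 22180) exceeded each other array by 2-fold or more in Dll1-cocultured cells. They held 3 of the 7 eosinophil genes (Prg2, Prg3 and Epx) and 7 of the 16 neutrophil and promyelocyte markers.

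Alox15 lay nearest to Retreg1 (0.27), Gpr183 (0.38), Deptor (0.42), Gnaq (0.50) and H2-Ab1 (0.55). H2-Ab1, a chain of MHC class II, read 5.90, 6.07, 8.63 and 8.69, and Gpr183, an oxysterol receptor, 4.53, 4.68, 6.69 and 7.31, so both were higher with Dll1 and in intestinal cells. Siglecf lay nearest to Cpne5 (0.01), Chdh (0.02), Map7d3 (0.02), Ms4a6c (0.03) and Cd22 (0.03), which read between 6.26 and 6.31 in intestinal cells and at or below 5.15 on the other arrays. The distances of Siglecf likewise reflect its intestinal level, since raising to the limit levelled most values of these genes on the other arrays. With 4 arrays many genes share a pattern, and such likeness is given as a description.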

How the data were processed

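Total RNA of 4 mouse mast cell preparations was measured on 4 arrays, 1 per group. Per the labels' protocols, 2 ng of RNA per sample was amplified to biotinylated cDNA (GeneChip WT Pico kit). The authors deposited log2 values for 33793 probe sets, between 4.13 and 13.14. Their base was read from that range, since natural logarithms would exceed a scanner's scale, and no source used here names the build, the normalization or the summarising software. Sorted by size, values of different arrays were 0.055 apart on average, so no further normalization was applied. The platform annotation gave 1 symbol for 23521 probe sets, several for 1814 and none for 8458. Genes with several probe sets were represented by the probe set of highest average level. Levels, limits, calls and pattern distances were computed with Python 3.11.15, pandas 2.3.3 and numpy 2.4.6. The call rule was run on simulated data with large shifts in genes well above the limit. That run did not test calls that rest on values near the limit or raised to it. Genes were named by these rules: the 7 genes, up to 4 called genes a list in a comparison, the 5 nearest in pattern to each gene with a range of at least 2-fold, up to 3 neighbours on each side and members of the same families. For the mast cell markers and the interleukin-5 pathway, every gene called between intestinal and control cells was named, which was more than 4. The genes and lists were chosen with earlier results of these data known. Listed genes named without a call, such as Gata2, Spi1, Cebpe and those below the limit, were chosen after their values were seen. Precision is limited by the number of arrays. Alternatives were to subtract array medians, to repeat quantile normalization, to set the limit at the 90th or 99th percentile or drop it, to average probe sets, to subtract an offset of 16, and to use 1.5-fold or 4-fold in place of 2-fold.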

Additional observations from a re-analysis of the deposited data

How the results depend on the processing

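Array medians subtracted, quantile normalization repeated, the 90th percentile limit, no limit and the mean of probe sets kept the number of the 7 genes called in each of the 6 comparisons. With the 99th percentile limit or a 4-fold size, 1 gene in place of 2 was called for intestinal against control and against TGF-β1 cells, because Siglecf was lost. Siglecf was also lost against Dll1 cells under both, which left 3 genes in place of 4. With the offset of 16 or a 1.5-fold size, 1 gene (Ccr3, lower) was called for TGF-β1 against control, where none was. A 4-fold size also lost Alox15 with Dll1, at 1.99 and 1.97. No called difference changed direction. With the offset, Prg2, Prg3 and Epx differed by 6.72, 5.29 and 4.55 between Dll1 and control. No paired analysis was possible because each group has 1 array.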
